A study of Mus musculus with 6 samples.

Results

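Wnt feedback and target genes were followed in sorted mouse hepatocytes. The 10 genes were named by symbol, with earlier results of these data known: Axin2, Lgr5, Rnf43, Znrf3, Nkd1, Notum, Sp5, Tbx3, Apcdd1 and Tnfrsf19. Of these 10, 9 had a row among the 17275 genes of the deposited read counts, and Apcdd1 had none. All 9 passed the filter on low counts. The cells were hepatocytes of C57BL/6 mice of the genotype Axin2rtTA;TetO-H2B-GFP, in which doxycycline lets the Axin2 promoter switch on a green fluorescent histone, so that the colour records promoter activity over the treatment and not at the moment of harvest. All mice carried both transgenes and drank doxycycline for 7 days, and the livers were of uninjured adults. Non-parenchymal cells were depleted, and sorting then parted fluorescent from dark hepatocytes, called Axin2-positive and Axin2-negative, with 3 libraries of each. Libraries are named positive or negative with their replicate number, which stands for a shared sequencing index. The labels give the age as 8 weeks in one place and as postnatal day 63 in another, and do not say whether the 3 libraries of a group came from different mice, so the p-values below measure only the spread between libraries.

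Wnt proteins bind Frizzled receptors with the co-receptors Lrp5 and Lrp6, which stops the destruction of β-catenin; β-catenin then enters the nucleus and acts with TCF/LEF factors on target genes. Several targets feed back on the pathway: Axin2 rebuilds the destruction complex, Rnf43 and Znrf3 remove Frizzled from the cell surface, Notum inactivates Wnt proteins outside the cell and Nkd1 binds Dishevelled. In the liver the pathway is known to be active in hepatocytes around the central vein, where endothelial cells of the vein supply Wnt and R-spondin proteins.

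The libraries held 75882611 to 103386648 reads assigned to genes. In CPM, read counts scaled to a common library total, the library labelled positive 1 had 2.40 CPM of Axin2 and its Axin2-negative partner of the same index 3.04 CPM, so the sorted gene went against that label. The name of this library is used below as a label only. Across 12343 tested genes the log2 difference between the libraries of a number had a standard deviation of 0.22, 0.78 and 0.62 in replicates 1, 2 and 3. Y-linked Ddx3y had 7164 and 6759 reads in replicate 2 and 0 to 3 in the other 4 libraries, so the numbers also differ in sex. Calls are therefore given with and without replicate 1. Summed over 10 hepatocyte markers, all with reads, the libraries held from 116600 to 227500 CPM. Alb alone ran from 60080 to 156300 CPM, so these sums mostly follow Alb. Levels in bulk RNA do not tell fewer cells of a type from less RNA per cell.

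Promoter sequence is shown for the gene that drove the sort and for the genes whose start-site windows carried the core of the TCF/LEF site. RefSeq promoter windows (GRCm38.p6, 250 bases before to 50 after a start site) matched 5 of the 10 genes, with 7 windows in all. CTTTGA was searched on both strands, as was the longer CTTTGATC, which contains it. The upstream 250 bases are printed 5′ to 3′ on the gene's strand, with matches in capitals.
Sp5, chr2:70474673-70474922, plus strand: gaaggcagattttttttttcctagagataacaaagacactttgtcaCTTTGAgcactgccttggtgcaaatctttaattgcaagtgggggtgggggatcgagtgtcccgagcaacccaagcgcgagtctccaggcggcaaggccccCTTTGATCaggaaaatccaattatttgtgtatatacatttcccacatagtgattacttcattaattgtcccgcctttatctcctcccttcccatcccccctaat
Tnfrsf19, internal start, chr14:61037988-61038237, minus strand: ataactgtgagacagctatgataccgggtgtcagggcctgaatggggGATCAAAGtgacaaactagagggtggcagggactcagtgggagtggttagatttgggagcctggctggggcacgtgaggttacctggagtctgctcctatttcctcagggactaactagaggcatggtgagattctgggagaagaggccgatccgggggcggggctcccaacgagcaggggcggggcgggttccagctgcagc
Axin2, chr11:108920099-108920348, plus strand: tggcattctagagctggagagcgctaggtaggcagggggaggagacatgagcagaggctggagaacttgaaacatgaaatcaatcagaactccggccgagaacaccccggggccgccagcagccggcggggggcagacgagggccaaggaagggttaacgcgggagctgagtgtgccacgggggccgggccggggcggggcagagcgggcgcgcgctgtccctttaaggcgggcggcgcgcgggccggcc
The Sp5 window held CTTTGA at -204 to -199 and CTTTGATC at -104 to -97, counted from the start site. In Tnfrsf19 the window of the downstream start held CTTTGATC on the opposite strand, where it reads GATCAAAG, at -203 to -196. CTTTGATC occurs in 0.938% of 32851 windows of this length and CTTTGA in 16.0%. The window of Axin2 printed above, both windows of Rnf43, the window of Nkd1 and the upstream window of Tnfrsf19 held neither. A match describes these letters only.

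Axin2 (ENSMUSG00000000142.15, chromosome 11, 108920349 to 108950783, GRCm38) encodes a scaffold of the β-catenin destruction complex, and its promoter defined the sort, so its level checks the labels and is no finding. Axin2 was at 2.40 CPM in the library labelled positive 1, 22.6 in positive 2 and 24.2 in positive 3, and at 3.04, 3.75 and 5.75 CPM in negative 1, 2 and 3. The 2 high libraries stood above all 4 others, and the groups overlapped through the library labelled positive 1. Within a number, the ratio of positive to negative was 0.788 (95% Clopper-Pearson interval 0.661 to 0.940), 6.02 (5.33 to 6.83) and 4.21 (3.82 to 4.65) in replicates 1, 2 and 3. These intervals, and those given below, cover counting error only. An antisense gene overlaps Axin2 in the annotation, and the use of strand in counting is not given in the sources used here.

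Lgr5 (chromosome 10, 115450311 to 115587780), the R-spondin receptor that holds Rnf43 and Znrf3 in check, had the widest range of the genes with reads in every library. It was at 0.628 CPM in the library labelled positive 1, 10.7 in positive 2 and 21.3 in positive 3, and at 0.669, 0.261 and 4.30 CPM in negative 1, 2 and 3. Its lowest and highest libraries differed 81.7-fold. Positive 2 and 3 stood above the rest, but negative 3 also held more Lgr5 than the other Axin2-negative libraries. Ratios were 0.938 (0.650 to 1.35), 40.9 (26.6 to 66.4) and 4.97 (4.44 to 5.56). The denominator in replicate 2 was 21 reads. A protein-coding gene on the other strand overlaps Lgr5.

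The transmembrane ubiquitin ligases Rnf43 (chromosome 11, 87662722 to 87735539) and Znrf3 (chromosome 11, 5276324 to 5444847) were present in all 6 libraries and spread less. Rnf43 was at 16.8 CPM in the library labelled positive 1, 40.7 in positive 2 and 51.4 in positive 3, and at 16.5, 19.4 and 26.9 CPM in negative 1, 2 and 3. Its ratios were 1.02 (0.95 to 1.09), 2.11 (1.98 to 2.24) and 1.91 (1.82 to 2.01). Znrf3 was at 7.86, 13.6 and 24.5 CPM against 8.75, 10.5 and 13.1 CPM. Positive 2 exceeded negative 3 by little in Znrf3, and the ratios were 0.899 (0.814 to 0.993), 1.29 (1.18 to 1.41) and 1.87 (1.74 to 2.02). The 2 ligases therefore had similar ratios in replicate 3 and separate ones in replicate 2, on the counting intervals. Without positive 3 the fitted difference of Znrf3 turned to -0.0082 on the log2 scale.

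Among the inhibitors, Notum (chromosome 11, 120653788 to 120661175), a secreted enzyme that strips the lipid from Wnt proteins, was abundant in both groups. Notum was at 27.1 CPM in the library labelled positive 1, 54.4 in positive 2 and 53.8 in positive 3, and at 30.1, 38.7 and 42.7 CPM in negative 1, 2 and 3. Positive 2 and 3 were again the highest, at ratios of only 1.41 (1.34 to 1.47) and 1.26 (1.21 to 1.32), and replicate 1 gave 0.898 (0.851 to 0.947). Antisense genes overlap Notum too. Nkd1 (chromosome 8, 88521354 to 88594884), the inhibitor that binds Dishevelled, was scarce. It had 19 reads in the library labelled positive 1, 6 in positive 2 and 107 in positive 3, and 13, 0 and 42 in negative 1, 2 and 3. At 0.0760 CPM, positive 2 lay below 4 of the other libraries, so Nkd1 did not share the order of the other genes. Replicate 3 gave a ratio of 2.60 (1.80 to 3.81) and replicate 1 of 1.44 (0.674 to 3.17). In replicate 2, with 6 reads against 0, the counting interval of the ratio started at 1.2. Without positive 3 the fitted difference of Nkd1 was -0.58. Apcdd1 (chromosome 18, 62922231 to 62961179), an inhibitor at the cell membrane, is listed at 0 FPKM in both groups in the authors' deposited table.

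Sp5 (chromosome 2, 70474923 to 70477729) encodes a zinc-finger transcription factor that is a direct β-catenin target, and was close to absent outside 2 libraries. It had 1 read in the library labelled positive 1, 184 in positive 2 and 155 in positive 3, and 0, 1 and 13 in negative 1, 2 and 3. The high libraries were at 2.33 and 1.80 CPM. The ratio was 187 in replicate 2, with an interval of 33.2 to 7439 that reflects the single read of negative 2, and 12.2 (6.91 to 23.4) in replicate 3. Replicate 1, with 1 read against 0, gives no ratio. Sp5 passed the filter on low counts through the 2 libraries in which it is high and negative 3, with 13 reads.

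Tbx3 (chromosome 5, 119670669 to 119684724) encodes a T-box repressor known from pericentral hepatocytes. Tbx3 was at 5.71 CPM in the library labelled positive 1, 24.5 in positive 2 and 41.0 in positive 3, and at 6.65, 7.04 and 15.5 CPM in negative 1, 2 and 3. Ratios were 0.859 (0.765 to 0.964), 3.48 (3.17 to 3.83) and 2.64 (2.48 to 2.82). Tnfrsf19 (chromosome 14, 60963875 to 61046490), also called Troy, is a receptor of the tumour necrosis factor family known as a Wnt target in intestinal stem cells. It was at 0.103, 2.77 and 4.90 CPM against 0.240, 0.361 and 1.22 CPM in the same order. Its ratios were 0.428 (0.182 to 0.935), 7.69 (5.21 to 11.8) and 4.01 (3.24 to 5.01). Tbx3 and Tnfrsf19 shared the order of Axin2: the highest value in positive 3 and the lowest in the library labelled positive 1. An antisense gene overlaps Tbx3, and a noncoding gene on the other strand overlaps Tnfrsf19.

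**Figure D1:**
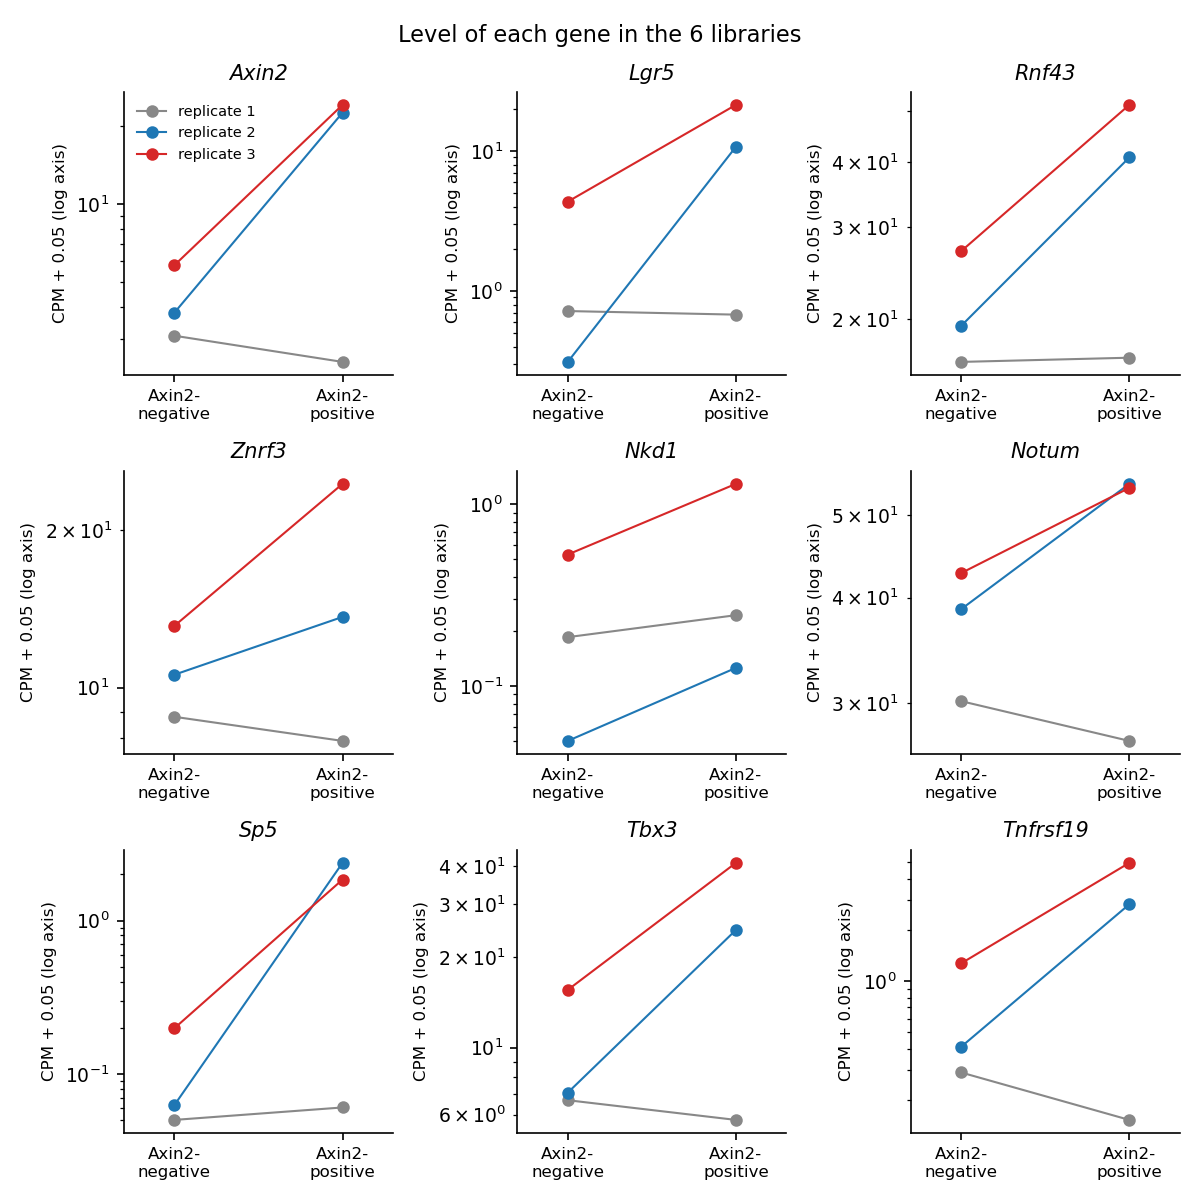
Level of each of the 9 genes with counts, as CPM plus 0.05 on a log axis, in the Axin2-negative (left) and Axin2-positive (right) library of each replicate number, joined by a line. Replicates 2 and 3 slope upwards in every panel, while replicate 1 slopes down in 6 panels, as for Axin2 at 3.04 and 2.40 CPM, and up slightly for Rnf43, Nkd1 and Sp5.

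Taking the 9 genes as a group, 8 had positive 2 and 3 above all 4 other libraries, all but Nkd1. The same order held for 15.1% of the 12343 tested genes. No gene of the 9 had all 3 libraries labelled Axin2-positive above all 3 Axin2-negative libraries, against 3.44% of tested genes. In replicates 2 and 3 all 9 were higher in the positive library, which 35.3% of tested genes also were. Levels at least 2-fold higher in the positive library of both replicates 2 and 3 occurred in 6 of the 9 (Axin2, Lgr5, Nkd1, Sp5, Tbx3 and Tnfrsf19), against 1.33% of tested genes. Within one number, levels at least 2-fold higher in the positive library occurred in 0, 7 and 6 of the 9 in replicates 1, 2 and 3, against 0.275%, 3.41% and 2.41% of tested genes. The counting interval lay above 1 for all 9 in replicate 2 (33.5% of tested genes) and all 9 in replicate 3 (32%), and below 1 for 0 in each, against 33.5% and 32%. The median log2 difference of the 9 was -0.15, 1.79 and 1.40 in replicates 1, 2 and 3, against 0.00, -0.01 and 0.00 over all tested genes. These differences use an offset of 0.05 CPM. For Nkd1 in replicate 2 an offset of 0.5 CPM gives 0.20 in place of 1.33. One of the 9, Axin2, drove the sort.

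In replicate 1, 6 of the 9 genes were lower in the library labelled positive 1. Over all tested genes the median log2 difference there was 0.0004, so a lower level alone was common. For Axin2, Znrf3, Notum, Tbx3 and Tnfrsf19 the counting interval of the ratio lay below 1, as it did for 11.4% of tested genes. None of the 9 had an interval above 1 there, which 11.2% of tested genes had. These 5 ratios were 0.428 to 0.899. Gene by gene, the log2 difference was smaller in size than in replicates 2 and 3. Of all tested genes, from 0.6% (Tnfrsf19) to 10.2% (Znrf3) had a lower log2 difference in replicate 1 than these 5. The ratios compare 1 library with 1 library and have no replicate.

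**Figure D2:**
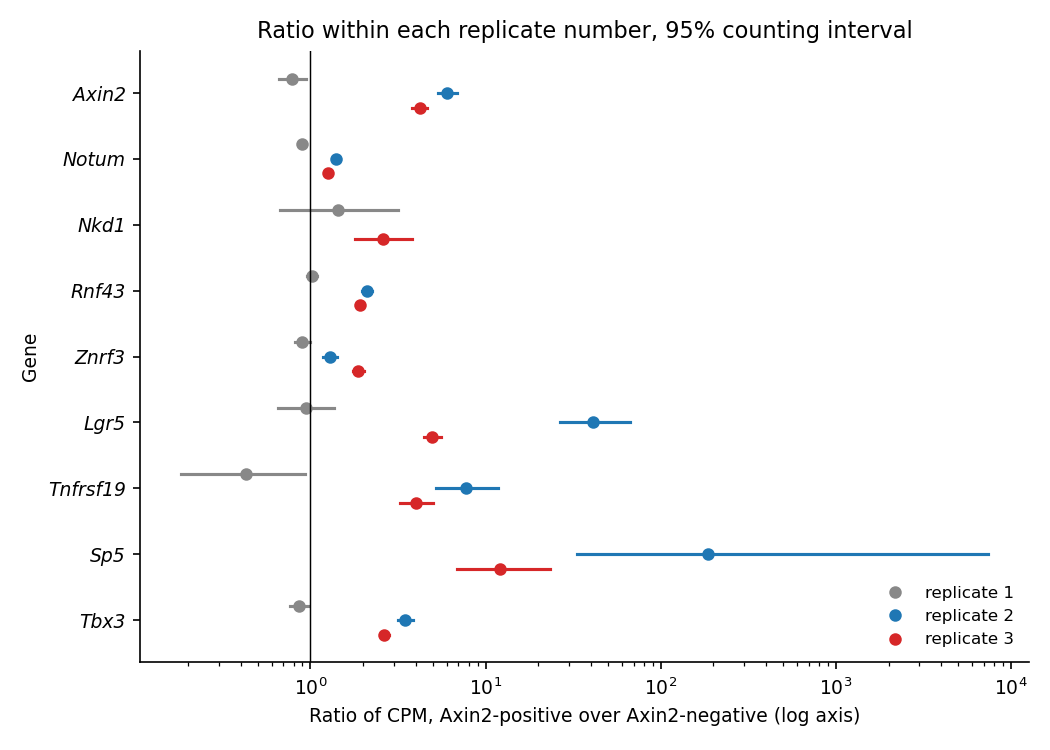
Ratio of CPM, Axin2-positive over Axin2-negative, within each replicate number on a log axis, with 95% Clopper-Pearson intervals as bars. Nkd1 in replicate 2 and Sp5 in replicate 1 have 0 reads in the Axin2-negative library and are not drawn. Lgr5 reaches 40.9 in replicate 2 and 4.97 in replicate 3, while all replicate 1 points lie near or below 1 apart from Nkd1 at 1.44.

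The ratios of replicates 2 and 3 were not alike. Negative 3 held the highest level of the 3 Axin2-negative libraries in all 9 genes, as in 33.3% of tested genes, and positive 3 exceeded positive 2 in 7 of 9, all but Notum and Sp5 (50% of tested genes). For Axin2, Lgr5, Notum, Sp5, Tbx3 and Tnfrsf19 the counting intervals of replicates 2 and 3 did not overlap. Among them replicate 2 had the larger ratio. The intervals of Znrf3 were also separate, with the larger ratio in replicate 3. They cover counting error only, and the share of all tested genes with such a separation was not computed. Over all tested genes the log2 difference also spread more in replicate 2 (SD 0.78) than in replicate 3 (SD 0.62). With 1 library per group in each number, the difference between replicates 2 and 3 was not tested over samples. Number, index and sex cannot be told apart.

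The fit over all 6 libraries asked whether the groups differed beyond the spread between libraries. All 9 genes had a positive log2 fold change, with a median of 1.29 against 0.00 over all tested genes, and edgeR's quasi-likelihood test called 0 of them, as it called 0% of the 12343 tested genes. At an unadjusted p under 0.05 it listed 0 of the 9, DESeq2 listed 3 and limma-voom 0, and after adjustment DESeq2 and limma-voom called 0. Over all genes the unadjusted counts were 279 with edgeR, 432 with DESeq2 and 238 with limma-voom. Fitted log2 fold changes were 1.97 (SE 0.81) for Axin2, 2.64 (SE 1.45) for Lgr5, 0.79 (SE 0.42) for Rnf43 and 0.51 (SE 0.41) for Znrf3. They were 0.28 (SE 0.29) for Notum, 1.29 (SE 1.54) for Nkd1, 4.65 (SE 1.96) for Sp5, 1.29 (SE 0.72) for Tbx3 and 2.09 (SE 1.28) for Tnfrsf19. Every edgeR adjusted p was 0.999. With the replicate number as a block, 0 were called, with edgeR adjusted p-values from 0.450 to 0.483, and 2 of the 9, Rnf43 and Sp5, had an unadjusted p under 0.05, as did 1132 of the 12343 genes.

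When the library labelled positive 1 was dropped, edgeR called 0 of the 9 higher and 0 lower (0.00796% and 0.0398% of 12559 genes), while 8 of 9, all but Nkd1, passed 0.05 before adjustment, as did 1666 of the 12559 genes (773 higher and 893 lower). Left without both libraries of replicate 1 and fitted with the block, 6 of the 9 were called higher and 0 lower, against 3.43% and 4.01% of 12385 genes. With 2 pairs the fit has 1 residual degree of freedom. The pair of replicate 1 was left out because it was known to differ little, so the calls of this fit are no independent evidence. Axin2 drove the sort and its level marked replicate 1, so its call is no finding. The 6 were Axin2 (log2 fold change 2.33, SE 0.15, edgeR adjusted p = 0.00530), Rnf43 (1.0, SE 0.09, 0.00751), Tbx3 (1.60, SE 0.12, 0.00644), Tnfrsf19 (2.41, SE 0.30, 0.0175), Sp5 (4.68, SE 0.72, 0.0291) and Lgr5 (3.37, SE 0.64, 0.0430). Notum (0.41, SE 0.09, edgeR adjusted p = 0.0550), Znrf3 (0.64, SE 0.15, 0.0698) and Nkd1 (1.69, SE 0.66, 0.178) were not called. Tested against a fold of 1.5, the same fit called Axin2, Rnf43, Tbx3 and Tnfrsf19, 4 of 9 higher and 0 lower, against 0.791% and 0.888% of genes, while Sp5 (edgeR adjusted p = 0.0628) and Lgr5 (0.112) were no longer called. With replicate 2 dropped in place of replicate 1, edgeR called 0 genes, and 81 had an unadjusted p under 0.05, and with replicate 3 dropped it called 0, and 33 did. Over the alternatives run with edgeR, DESeq2 and limma-voom, the highest adjusted p of each of the 9 genes was above 0.999.

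**Figure D3:**
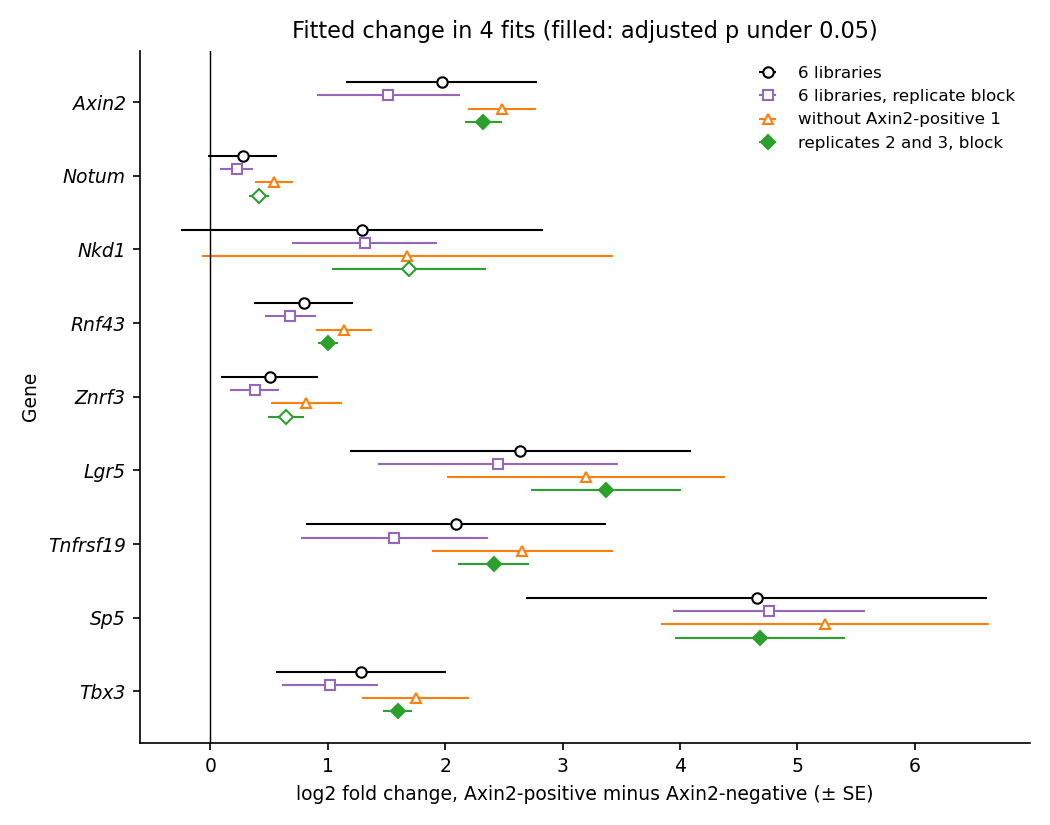
Fitted log2 fold change with its SE (bars) for the 9 genes under edgeR with 6 libraries, with 6 libraries and the replicate block, without the library labelled positive 1, and with replicates 2 and 3 alone and the block. Filled symbols mark an adjusted p under 0.05, which occurs for 6 genes and only in the last of these fits.

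Levels were compared between genes per length of the annotated transcript, as RPKM. In the Axin2-negative libraries Notum was highest at 18.5 ± 3.19 RPKM (SD, n = 3), followed by Rnf43 at 4.85 ± 1.25, Tbx3 at 2.04 ± 1.05, Znrf3 at 1.71 ± 0.345 and Axin2 at 0.981 ± 0.329. Lgr5 followed at 0.370 ± 0.471, Tnfrsf19 at 0.150 ± 0.132, Nkd1 at 0.0675 ± 0.0813 and Sp5 at 0.0255 ± 0.0392 on the same scale. The ranges of Notum and Rnf43, of Rnf43 and Tbx3, and of Znrf3 and Axin2 did not overlap there, and those of the other neighbours did. In the libraries labelled Axin2-positive the mean was 22.4 ± 7.77 for Notum, 8.42 ± 4.11 for Rnf43, 4.97 ± 3.70 for Tbx3, 3.85 ± 2.85 for Axin2 and 2.43 ± 1.34 for Znrf3. The mean was 2.31 ± 2.2 for Lgr5, 0.658 ± 0.579 for Sp5, 0.640 ± 0.593 for Tnfrsf19 and 0.167 ± 0.212 for Nkd1. Axin2 stood below Znrf3 in all 3 Axin2-negative libraries and above it in positive 2 (5.30 against 2.16) and positive 3 (5.68 against 3.88).

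**Figure D4:**
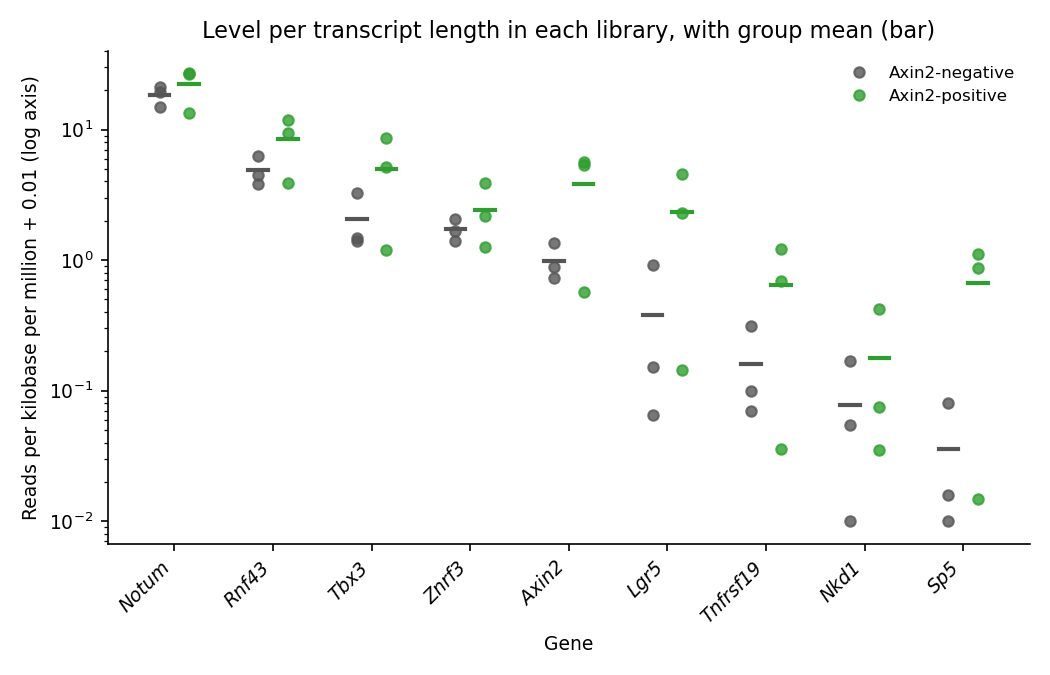
RPKM plus 0.01, on a log axis, for each gene in each Axin2-negative (grey) and Axin2-positive (green) library, with the group mean as a bar, ordered by the Axin2-negative mean. Notum lies above all other genes in every library, and Nkd1 and Sp5 have the lowest Axin2-negative means, 0.0675 and 0.0255 RPKM.

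The authors' deposited table gives 1 FPKM value per group and transcript. It lists Axin2 at 4.52 against 1.16 FPKM (q = 0.00961), Lgr5 at 2.53 against 0.447 (q = 0.00961) and a Tbx3 transcript at 4.58 against 1.91 (q = 0.0380) as significant, with Cuffdiff q-values; a second Tbx3 transcript is at 1.66 against 0.709 (q = 0.9995) and is not. Of 13843 transcripts with the status OK, the authors' deposited table marks 0.527% as significant and higher in Axin2-positive and 0.173% as significant and lower. The same table lists Rnf43 at 8.94 against 5.27 FPKM (Cuffdiff q = 0.145), Sp5 at 1.58 against 0.0634 (q = 0.522), Notum at 27.4 against 22.8 (q = 0.9995) and Znrf3 at 2.49 against 1.77 (q = 0.9995), none significant. The authors' deposited table has Tnfrsf19 at 0.405 against 0.139 FPKM (Cuffdiff q = 0.9995), and the Nkd1 transcripts were not tested there.

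Other Wnt feedback and target genes gave calls in both directions. Of 40 such genes 35 had a row and 16 passed the filter, and over 6 libraries edgeR called 0 of them, with a median log2 fold change of -0.15. In the fit of replicates 2 and 3, 3 of 17 were called higher and 3 lower (3.43% and 4.01% of all genes), with a median of -0.20 against 0.00 over all genes. The higher ones were the tight-junction gene Cldn2 (1.02, SE 0.10, edgeR adjusted p = 0.00931), the Wnt receptor Fzd7 (0.81, SE 0.11, 0.0196) and the TCF factor Tcf7 (1.17, SE 0.23, 0.0473). The lower ones were the biliary factor Sox9 (-4.50, SE 0.44, edgeR adjusted p = 0.00959), the Dishevelled-binding gene Dact1 (-2.23, SE 0.39, 0.0376) and the immediate-early gene Jun (-0.55, SE 0.10, 0.0432). Against a fold of 1.5 the same fit called Sox9 alone (edgeR adjusted p = 0.0164), with Cldn2 at 0.0567, Dact1 at 0.106, Tcf7 at 0.258, Fzd7 at 0.261 and Jun at 1. Without the library labelled positive 1, edgeR called 0 of the 17. Cldn2 was at 55.9 CPM in the library labelled positive 1, 183 in positive 2 and 196 in positive 3, and at 56.3, 89.4 and 97.6 CPM in negative 1, 2 and 3, the order of Axin2 itself. Sox9 levels were 7.80, 0.0633 and 0.0465 CPM in the libraries with the positive label and 8.28, 1.67 and 0.923 CPM in the negative ones. The bile duct marker Spp1 had a like order, at 3.16, 0.101 and 0.128 CPM against 3.08, 1.57 and 1.76 CPM, and Krt19, Krt7, Epcam and Cftr were at 0 to 0.115 CPM. The part of bile duct cells in the Sox9 difference was not tested. The most abundant genes of the list were Jun, Id2, Cldn2 and the cell-cycle gene Ccnd1. Ccnd1 was at 104, 2.64 and 72.3 CPM against 104, 21.1 and 163 CPM; replicate 2, the male pair, was lowest. Id2 was at 290, 160 and 121 CPM against 291, 186 and 166 CPM, and Jun at 1137, 552 and 605 CPM against 1174, 785 and 909 CPM. None of the secreted inhibitors of the Dkk and Sfrp families on the list, nor Wif1 or Frzb, passed the filter in the fit of 6 libraries.

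The genes most like Axin2 and Lgr5 were ranked by Pearson correlation of log2(CPM + 0.05) over the 6 libraries. These libraries differ in depth, index and sex, and both libraries of replicate 1 had low Axin2. Such differences can enter every correlation. For Axin2, the non-members with the highest correlation were A530013C23Rik (0.997), the ammonium transporter gene Rhbg (0.996), the mitochondrial ribosome gene Mrpl15 (0.996), Ccdc73 (0.996) and Gnpnat1 (0.995). The correlation takes no account of the size of a change. Mrpl15 ran only from 38.5 to 58.9 CPM and Gnpnat1 from 67.4 to 111 CPM. A530013C23Rik, at 0.103 to 0.256 CPM, and Ccdc73, at 0.679 to 0.954 CPM, were scarce. Rhbg, the gene of this group with the widest range, was at 0.731 CPM in the library labelled positive 1, 22.3 in positive 2 and 21.7 in positive 3, and at 1.2, 1.32 and 2.16 CPM in negative 1, 2 and 3. Among the members Sp5 came closest to Axin2 (0.99, rank 19 of all other tested genes), then Rnf43 (0.98, rank 48), Tnfrsf19 (0.96, rank 146), Tbx3 (0.96, rank 150), Notum (0.94, rank 263) and Lgr5 (0.92, rank 427). Znrf3 (0.88, rank 699) and Nkd1 (0.41, rank 3782) were farthest. For Lgr5 the highest were Daam2 (0.997), Iqgap2 (0.995), Styx (0.991), Slc6a9 (0.991) and Lrtm1 (0.991). Daam2 was at 1.08, 3.40 and 4.70 CPM against 1.24, 0.846 and 2.23 CPM, while Iqgap2 ran only from 349 to 477 CPM. With an offset of 0.5 CPM only 2 of these 5 genes stayed among the 5 nearest to Lgr5.

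Markers of other liver cells were read beside these genes. The summed level of 12 endothelial markers, all with a row, ran from 2.32 to 49.0 CPM over the libraries with the positive label and from 5.48 to 68.8 CPM in Axin2-negative, and was lowest in replicate 2. In positive 2, where Axin2, Lgr5 and Sp5 were high, 6 of the 12 had no read (Cdh5, Lyve1, Tek, Emcn, Vwf and Rspo3). Most of the sum of positive 2 came from Eng at 1.08 and Stab2 at 1.01 CPM. Positive 3, where Axin2 and Lgr5 were highest, had a sum of 49.0 CPM, with Stab2 at 15.5 and Eng at 9.35 CPM. The library labelled positive 1, with low Axin2 and Lgr5, had a sum of 48.3 CPM. The part of endothelial cells in the levels of the 9 genes was not tested. The sum of 10 stellate or fibroblast markers was 0.253 to 5.43 CPM against 0.971 to 6.32 CPM, and the sum of 9 of 10 Kupffer markers with a row was 0.380 to 4.12 CPM against 3.18 to 27.5 CPM. Negative 3, the Axin2-negative library with the most Lgr5, also had the most Kupffer and endothelial signal, and its part in those levels was not tested. Hepatocyte zonation genes were read in the same way. Summed over 7 pericentral genes, the library labelled positive 1 held 2078 CPM, positive 2 held 15070 and positive 3 held 16040, against 2073, 3664 and 5150 CPM in negative 1, 2 and 3. Cyp2e1 alone held 1697, 11160 and 11170 CPM of this sum against 1692, 2923 and 4033 CPM. The sum of 8 periportal genes was 7511, 2643 and 4100 CPM against 7576, 9012 and 9632 CPM. Of this, Pck1 alone held 2869, 1685 and 3052 CPM against 2906, 3961 and 5096 CPM. In the fit of replicates 2 and 3 all 7 pericentral genes were called higher and all 8 periportal genes lower (3.43% and 4.01% of all genes), 7 and 5 against a fold of 1.5. The same fit called 6 of 7 tested Kupffer markers and 3 of 10 hepatocyte markers lower, and over 6 libraries edgeR called 0 of these 4 lists.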

How the data were processed

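RNA was sequenced from 3 libraries of Axin2-positive and 3 of Axin2-negative sorted hepatocytes, made with a stranded mRNA kit, per the labels' protocols. The authors deposited read counts per gene symbol, whole numbers with no normalization, and FPKM per transcript with p-values and q-values, 1 value per group. The submitters' processing notes list TopHat2 2.0.11, Cuffdiff 2.2.2 and the build mm10, with no role given; the FPKM table has Cuffdiff's columns, per the file headers. For the counts, the sources used here name no counter, annotation or strand setting.

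Columns were matched to libraries by group and index, since their order differs between groups. Counts were tested over all genes in R 4.3.3 by the quasi-likelihood test of edgeR 4.0.16, with group as the only term, after filterByExpr and TMM; p-values were Benjamini-Hochberg adjusted and called under 0.05. The script was tested on simulated counts with a dispersion common to all genes and no effect of pair or sex, unlike these data. CPM use TMM-scaled totals. Transcript lengths and gene positions come from GENCODE M21 (GRCm38), by the accession with the highest deposited FPKM of a gene. Intervals are 95% Clopper-Pearson. Replicate numbers stand for the sequencing index. Deviations from the group means correlated at 0.67, 0.80 and 0.76 between libraries of replicates 1, 2 and 3, all above the minimum of 0.1. The numbers were therefore taken as pairs. The highest correlation between different numbers was 0.20, for positive 1 and negative 3, which is also above 0.1. Besides the index and these correlations, only the Ddx3y reads given above bear on the pairing. They set both libraries of replicate 2 apart from the rest.

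The members and lists, and the alternatives (DESeq2 1.42.0, limma 3.58.1, other scalings and filters, the replicate block, libraries left out), were chosen with earlier results of these data known. Named genes were the members, the 4 most abundant and the called genes of a list of 40 other Wnt genes, zonation references and the 5 genes most like Axin2 or Lgr5. Cell type markers and the untested secreted inhibitors were named after their values were seen. The sum of the bile duct markers is not reported here.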

Additional observations from a re-analysis of the deposited data

How the results depend on the processing

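Over 6 libraries edgeR called 0 genes higher and 0 lower, and so did DESeq2, limma-voom, the other scalings and filters, a threshold of 0.01 and the replicate block. Leaving out each library in turn gave 0 to 1 genes higher and 0 to 5 lower, the highest counts without the library labelled Axin2-positive 1. Without both libraries of replicate 1 and with the replicate block there were 425 higher and 497 lower, and 98 and 110 against a fold of 1.5; the cause was not tested. Of 159 member values under 18 alternatives, 147 kept their direction and stayed uncalled, 10 were called, all in those fits of replicates 2 and 3, and 2 turned direction without Axin2-positive replicate 3: Znrf3 to -0.0082 (range over single libraries left out -0.0082 to 0.82) and Nkd1 to -0.58 (-0.58 to 2.85). The replicate block changed no call of a member over 6 libraries. Sp5 and Nkd1 were not tested with a minimum of 1 CPM in 3 libraries, nor Sp5 without replicate 3, as too few libraries held them. An offset of 0.5 CPM moved 7 of 27 within-number differences beyond their counting interval, all of Lgr5, Nkd1, Sp5 and Tnfrsf19, and kept 2 of the 5 genes most like Lgr5. Low read numbers limit Nkd1, Sp5 and Tnfrsf19.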
